A study of Homo sapiens with 30 samples.

Results

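DUSP4, DUSP5, DUSP6, SPRY1, SPRY2, SPRY4, SPRED1, ETV1, ETV4 and ETV5 are 10 genes of the ERK pathway's negative feedback and of its ETS-family output, and they are described here across all columns of an RNA sequencing series. They were chosen by symbol. All 10 were found among the 23262 genes of the time-course tables and the 23261 genes of the clone table, and all 10 passed every filter on low counts. The cells are Rh30, an established human line from alveolar rhabdomyosarcoma in which PAX3 is fused to FOXO1, and the series holds 30 samples in 15 groups of 2. In the PAX3-FOXO1-FKBP line a degradation tag (FKBP) sits on the fusion, and in the FOXO1-FKBP line it sits on FOXO1. The small molecule dTAG directs a tagged protein to the proteasome. Each of these lines was kept in DMSO or in 500 nM dTAG for 2, 6, 24 or 72 h, which makes 20 samples. The other 10 are parental Rh30 cells and the PAX3-FOXO1-FKBP clones 4, 10, 11 and 12, all in DMSO without dTAG. Which clone became the time-course line, and whether the samples of a group are separate cultures, is not stated in the sources used here.

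When receptor tyrosine kinases switch on RAS, the kinases RAF, MEK and ERK are activated in turn, and ERK signalling raises transcription of genes that shut it down again. The DUSP phosphatases remove the activating phosphates from ERK, and the Sprouty and SPRED proteins act further up, between receptor and RAF. ETV1, ETV4 and ETV5 are the PEA3 group of ETS transcription factors, whose transcripts commonly follow FGF and ERK signalling. In alveolar rhabdomyosarcoma the fusion keeps up expression of the receptor FGFR4, so a kinase input to ERK is present in this tumour type.

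The time-course columns summed to between 25863451 and 30466960 counts, and the clone libraries to between 17746684 and 26834005. Of 10 myogenic and rhabdomyosarcoma markers, 8 were at 10 or more normalised counts in every column and library. Each time-course column pools the 2 samples of a condition, so its values have no replicate error, and intervals given with them are 95% counting intervals only (exact binomial, on rounded counts). The 2 h dTAG column of the PAX3-FOXO1-FKBP line also held B lineage RNA: 15 of 16 B lineage markers were at 10 or more counts there, with a summed count of 4358, against 4 or 5 markers and sums of 495.1 to 2876 in the other columns of that line. As dTAG acts on protein, PAX3 and FOXO1 transcripts do not check the labels. PAX3 stood at 782.5 normalised counts in DMSO and at 484.8, 400.2, 495.1 and 400.9 at 2, 6, 24 and 72 h of dTAG.

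Promoter sequence was used for 6 of the 10 genes, in 14 windows of 250 bases that end just before an annotated start (RefSeq, GRCh38.p14). Windows of the 10 genes were filtered by chromosome, and the 35116 windows used for comparison below were not. DUSP4, DUSP5, ETV4 and ETV5 had no window in this set. The windows of DUSP6, which was lowest after dTAG, and SPRY4, which was low and partly came back, are shown because these genes passed the 2-fold rule used below. Capitals mark GGAA or its reverse complement TTCC, the core letters of ETS factor sites. DUSP6 lies at chr12:89352502-89352751 and SPRY4 at chr5:142324248-142324497, both on the minus strand.
DUSP6: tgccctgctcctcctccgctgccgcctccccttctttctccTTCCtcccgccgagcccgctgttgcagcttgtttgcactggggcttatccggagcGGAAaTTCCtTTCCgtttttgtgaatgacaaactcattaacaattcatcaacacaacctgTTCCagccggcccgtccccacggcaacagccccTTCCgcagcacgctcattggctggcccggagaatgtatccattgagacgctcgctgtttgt
SPRY4: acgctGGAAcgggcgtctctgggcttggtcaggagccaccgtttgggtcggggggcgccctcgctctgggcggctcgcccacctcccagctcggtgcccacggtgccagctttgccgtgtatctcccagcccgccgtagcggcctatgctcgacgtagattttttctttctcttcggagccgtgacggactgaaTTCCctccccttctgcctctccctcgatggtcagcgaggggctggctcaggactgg
The DUSP6 window held 6 such matches and the SPRY4 window 2, the highest and the lowest number among the 14 windows. GGAA on either strand was found in 92.7% of 35116 windows of the same length, with a median of 3 matches. The longer form CCGGAA, which contains GGAA, was in 14.5% of windows and in neither of these. Nor did they hold TGANTCA (an AP-1 motif, in 6.57% of windows), TGACGTCA (CRE, 1.65%), TGTTTAC (forkhead, 2.98%) or CANNTG (E-box, 61.8%), all searched on both strands. A match is a description of letters and not of binding.

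With dTAG added to the PAX3-FOXO1-FKBP line, 9 of the 10 genes were below DMSO at 6 h and at 24 h, and DUSP4 alone was above it. Of the 12330 genes that met the count minimum given next, 5893 were below DMSO at 6 h and 5893 at 24 h. A change of at least 2-fold, with a mean of at least 50 normalised counts over the 5 columns, was met by 0 members at 2 h, by DUSP6 and SPRY4 at 6 h, and by DUSP6, ETV4 and ETV5 at both 24 h and 72 h, all lower. Over the 12330 genes that met the minimum, 0.276%, 1.23%, 1.73% and 3.05% were at least 2-fold lower at those 4 times, and 0.373%, 0.608%, 1.38% and 3.41% at least 2-fold higher. The median log2 change of the 10 genes was -0.31, -0.67, -0.65 and -0.63 at 2, 6, 24 and 72 h, beside medians within 0.0135 of 0 over all genes. Lasting change is defined here as 2-fold at 72 h and earlier in the same direction. Transient change is 2-fold at 2, 6 or 24 h and within 2-fold at 72 h. DUSP6, ETV4 and ETV5 were lasting (2.97% of all genes, 1.58% on the lower side) and SPRY4 was transient (0.843%, 0.519% on the lower side). None was late, that is 2-fold at 72 h only (3.49%), and the other 6 never reached 2-fold. Leaving out the 2 h column could not change a class, since 0 members reached 2-fold there, so the classes say nothing about that column. In bulk RNA, fewer cells of a type and less RNA per cell cannot be told apart.

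**Figure D1:**
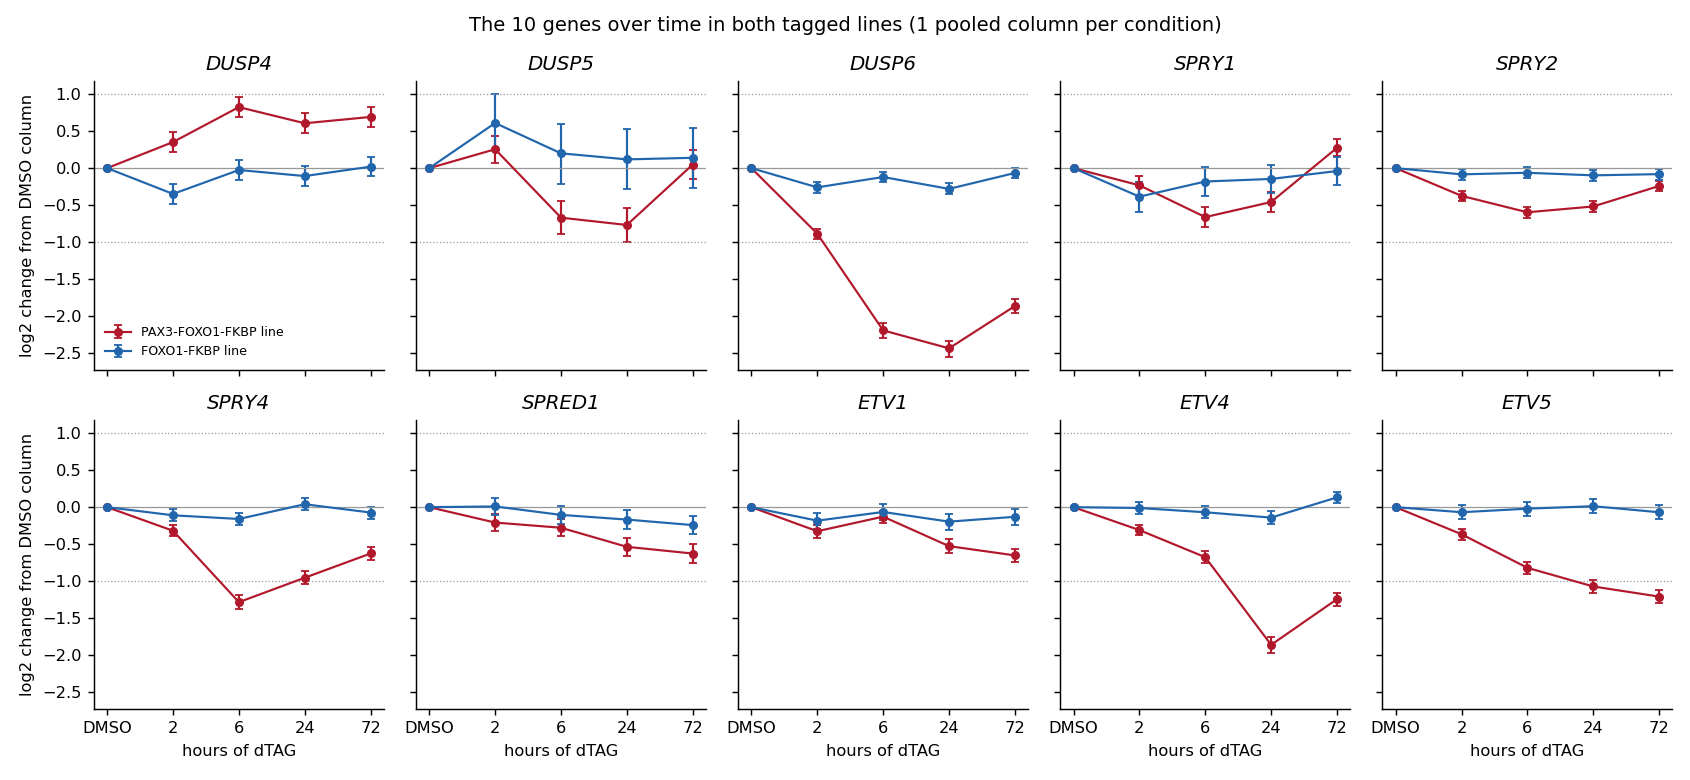
Log2 change from the DMSO column (y axis) at 2, 6, 24 and 72 h of dTAG (x axis, evenly spaced) for each of the 10 genes, in the PAX3-FOXO1-FKBP line (red) and the FOXO1-FKBP line (blue). Points are single pooled columns, bars are 95% counting intervals and dotted lines mark 2-fold. DUSP6 reaches -2.44 at 24 h in the red line and no lower than -0.28 in the blue line.

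Among the phosphatases, DUSP6, the cytoplasmic phosphatase selective for ERK, was the member with the largest change. Its normalised count was 4596 in DMSO, 2486 at 2 h, 1003 at 6 h, 847.5 at 24 h and 1261 at 72 h. All 4 dTAG columns were thus lower than DMSO, by -0.89, -2.19, -2.44 and -1.86 on the log2 scale (interval at 24 h -2.55 to -2.33). At 72 h the gene stood at 27.4% of its DMSO level after 18.4% at 24 h. DUSP5, a nuclear ERK phosphatase, was at 436.9 in DMSO and then at 521.8, 273.9, 255.7 and 452.1. It was thus above DMSO at 2 h, below it at 6 and 24 h (-0.67 and -0.77), and at 72 h its log2 change of 0.05 had an interval of -0.14 to 0.24. DUSP4, a nuclear phosphatase that acts on ERK and other MAP kinases, stood above DMSO at every time, at 919.8, 1277, 1097 and 1164 against 720.0. Its log2 change peaked at 0.82 at 6 h and was 0.69 at 72 h (interval 0.56 to 0.83). The 2 h column also held B lineage RNA, and its part in the 2 h values of these genes was not tested.

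Among the Sproutys and SPRED1, which restrain signalling to RAS and RAF, SPRY4 departed furthest from DMSO. It was at 2957 in DMSO and at 2370, 1213, 1526 and 1915 after dTAG, that is at 41.0% of DMSO at 6 h and 64.8% at 72 h. SPRY1 was at 1115 in DMSO and at 948.7, 703.9, 810.9 and 1350. The 6 h column was its lowest and the 72 h column its highest, at 0.28 above DMSO on the log2 scale (interval 0.16 to 0.39). SPRY2, at 3576 in DMSO, was at 2758, 2364, 2496 and 3024, and none of its columns was more than 0.60 below DMSO. SPRED1, which works with neurofibromin to limit RAS, had no such return: 1338 in DMSO, then 1158, 1103, 922.3 and 865.9, with its lowest value at 72 h (-0.63).

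The ETV factors differed in their timing. ETV4 was at 3438 in DMSO and at 2773, 2150, 944.7 and 1451 after dTAG, so its lowest column was 24 h (-1.86) and at 72 h it was at 42.2% of DMSO. ETV5 was at 3491 in DMSO and at 2708, 1977, 1660 and 1509, lower in each later column, with -1.21 at 72 h (interval -1.30 to -1.12). ETV1 was at 2415 in DMSO and at 1927, 2210, 1676 and 1536, and its 6 h value lay above its 2 h value. Counts for these genes may include reads of overlapping genes, since no source used here gives the strand used in counting: in GENCODE v29 ETV4 overlaps DHX8 and ETV5 overlaps ETV5-AS1 on the opposite strand, as do DUSP6 with AC024909.2 and SPRY4 with SPRY4-AS1, and ETV5 overlaps DGKG on its own strand.

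From 24 to 72 h, 7 of the 10 genes were higher at the later time, against 47.9% of all genes. DUSP5 had the largest step (0.82 on the log2 scale), followed by SPRY1 (0.73), ETV4 (0.62), DUSP6 (0.57), SPRY4 (0.33), SPRY2 (0.28) and DUSP4 (0.09). Of the largest change each gene showed at any time, 76.5% was left at 72 h for DUSP6, 66.8% for ETV4, 48.7% for SPRY4 and 40.4% for SPRY2 on the log2 scale. For DUSP5 and SPRY1 nothing was left. At a 1.5-fold threshold in place of 2-fold, all 10 genes had a class: DUSP5, SPRY1 and SPRY2 were transient (3.47% of all genes), DUSP4, DUSP6, SPRY4, ETV4 and ETV5 lasting (8.37%), and SPRED1 and ETV1 late (9.72%). SPRY4 is therefore transient at 2-fold and lasting at 1.5-fold.

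**Figure D2:**
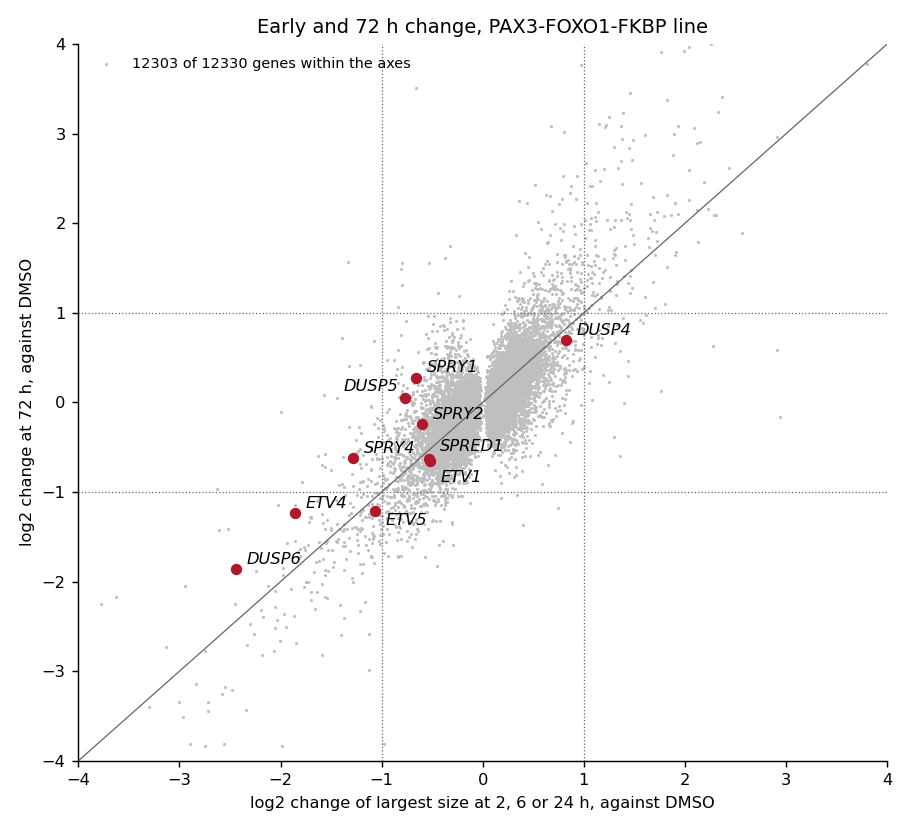
Log2 change of largest size at 2, 6 or 24 h (x axis) against log2 change at 72 h (y axis) in the PAX3-FOXO1-FKBP line, for genes with a mean of at least 50 normalised counts (grey) and the 10 genes (red, named). Dotted lines mark 2-fold and the diagonal marks equal change. SPRY1 and DUSP5 lie above 0 on the y axis, and DUSP6 and ETV4 lie above the diagonal but below the 2-fold line.

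Time was tested with edgeR quasi-likelihood fits over the 5 columns of a line, whose p-values measure the scatter of pooled columns around a line or parabola and not replicate error. For a straight slope on log2 of hours plus 1, ETV5 fell by 0.20 per unit (SE 0.026, adjusted p = 0.00654), ETV4 fell by 0.25 (SE 0.055, 0.0462) and SPRED1 fell by 0.10 (SE 0.021, 0.0355). These 3 compare with 4.54% of 14251 genes called, 2.41% rising and 2.13% falling. DUSP6, with a slope of -0.32 (SE 0.081), had an adjusted p of 0.0684. When a squared term was added, DUSP6 (adjusted p = 0.0303) and ETV5 (0.0316) passed this curve test, among 1.77% of genes called. In simulated data with 2-fold changes, 21.8% and 24.2% of curve calls were false, for a slope and for a change that comes and goes. The slope calls of ETV4 and SPRED1 are lost when the 2 h or the 6 h column is left out (ETV4 0.0523 and 0.0673, SPRED1 0.0773 and 0.0843), that of SPRED1 also without the 72 h column (0.184). All 3 are lost without the DMSO column (0.116 for ETV5, 0.328 for ETV4 and 0.311 for SPRED1) or with time in plain hours (0.193, 0.314 and 0.183), and DUSP6 passed without the 6 h column (0.0309) or the 72 h column (0.03).

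The squared term alone, which bears on return towards DMSO, passed for 0 of 14251 genes in edgeR, with 527 genes at an unadjusted p under 0.05 and DUSP6, SPRY1, SPRY2 and SPRY4 among them. DESeq2 called 25 genes (0.175%), DUSP6 included (0.12, adjusted p = 0.0019). In edgeR, DUSP6 passed without the 2 h column (adjusted p = 0.00305), where 39 of 14144 genes were called. DUSP6 (0.000358), DUSP5 (0.00266), SPRY1 (0.0159) and SPRY4 (0.0298) passed without the DMSO column, where 307 of 14144 genes were called. That last fit holds dTAG columns only, so it describes a bend among them and not return towards DMSO.

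In the FOXO1-FKBP line, which received the same dTAG, all 10 genes stayed within 2-fold of DMSO at every time. In that line 0.0417%, 0.025%, 0.1% and 0.359% of 11980 genes were at least 2-fold lower at 2, 6, 24 and 72 h, and 0.0334%, 0.0334%, 0.109% and 0.0501% at least 2-fold higher. DUSP6 was at 3302 normalised counts in DMSO and at 2758, 3039, 2719 and 3156 after dTAG, and ETV5 was at 1948 and then at 1858, 1920, 1966 and 1857. The widest of these departures was -0.28 on the log2 scale, for DUSP6 at 24 h. Of all 10, DUSP5 departed furthest, from 98.6 to 151.4 at 2 h (0.61, interval 0.24 to 1.00), and it was the only member past 1.5-fold. The genes that reached 2-fold in the other line stayed near DMSO here: ETV4 was at 2447 in DMSO and at 2427, 2333, 2218 and 2682, and SPRY4 at 2509 and then at 2325, 2246, 2579 and 2386. SPRY1, the low one of the Sproutys, was at 476.1 and then at 363.9, 419.8, 430.0 and 463.3, with -0.39 at 2 h as its lowest. SPRY2 stayed between 2773 and 2967, and ETV1 between 1295 and 1483. SPRED1 was at 1116 in DMSO and at 1124, 1038, 993.5 and 943.3, so its 72 h column was the lowest in both lines. DUSP4 was lower than DMSO at 2 h here (-0.35) and higher than DMSO in the other line (0.35). The 2 h column of that other line is the one that also held B lineage RNA, whose part was not tested. No gene passed the edgeR slope or curve test in this line (640 and 142 at an unadjusted p under 0.05, with DESeq2 calling 1 and 2 genes), and SPRED1 was the only member among those at an unadjusted slope p under 0.05. Changes in these columns also ran with transcript length and GC content across genes (Spearman's rho with length -0.51 to 0.306). Their part in the small member changes was not tested beyond a correction that left all 10 within 2-fold. Length tracked the changes in PAX3-FOXO1-FKBP cells as well, except after 24 h. Its rho in those cells came to -0.31 after 2 h, -0.25 after 6 h, -0.00722 after 24 h and -0.279 after 72 h. SPRED1 has the longest transcript of the 10 genes (7780 nt). The part of length in its slope call in those cells, or in its 72 h low in both lines, was not tested.

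The difference in slope between the lines passed for ETV5 only (-0.20, SE 0.031, adjusted p = 0.00921), among 2.02% of 14502 genes, 0.903% with the lower slope in the PAX3-FOXO1-FKBP line. ETV4 (-0.26, 0.0891) and DUSP6 (-0.32, 0.184) had larger estimates that did not pass, though ETV4 passed without the 24 h column (0.000829) and with DESeq2 (0.0121). With the squared term included, no member passed (DUSP6 0.0899, ETV5 0.0512), and 0.565% of genes did. The ETV5 call is lost without the 2 h column (0.0844), without the DMSO column (0.25) or with time in hours (0.343). Levels in DMSO were not tested between the lines, since the 2 tables were made apart. Side by side, DUSP5 was at 14.8 CPM (counts scaled to a common total) in the PAX3-FOXO1-FKBP line and 3.88 in the FOXO1-FKBP line, SPRY1 at 37.6 and 18.7, and DUSP6 at 155.2 and 129.9. Per kilobase of transcript, ETV4 (1420 normalised counts), SPRY2 (1320) and DUSP6 (1040) had the highest DMSO levels of the 10 in the PAX3-FOXO1-FKBP line, and DUSP4 the lowest.

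Other genes of the pathway are given by lists, each beside the 4.54% of all genes that the slope test called. Of 30 other ERK-responsive genes 25 were tested, and 1 passed the slope test: KLF2, a zinc finger transcription factor, which rose (1.41 at 72 h, adjusted p = 0.0392). EPHA4, an ephrin receptor, passed the curve test alone (-0.70, -0.97, -0.96 and -0.87 at 2, 6, 24 and 72 h, 0.0492). Of 20 of these genes above the count minimum, 0 were at least 2-fold lower at any time (0.276% to 3.05% of all genes), and 1 at 24 h and 4 at 72 h were at least 2-fold higher (1.38% and 3.41%). Their median was -0.15 at 6 h and 0.07 at 72 h. Genes of this list below the minimum also reached 2-fold, in both directions. FOSL1 (63.47 normalised counts in DMSO) was at -1.259, -1.438 and -1.002 at 6, 24 and 72 h. EGR2 (24.66 in DMSO) was at -1.057 and -1.688 at 2 and 6 h. Higher were FOSB (13.18 in DMSO), at 1.18 at 2 h, and EGR3 (1.396 in DMSO), at 1.334 at 72 h. EGR1, an immediate-early ERK target, was at -0.06, -0.69, 1.12 and 2.02 (slope 0.0557), FOS at -0.30, -0.53, 0.07 and 0.61 (0.383), and CCND1, the G1 cyclin, at 0.03, -0.16, -0.47 and -0.45 (0.0959). Within the ERK cascade, 1 of 25 genes was called: SHC1, the adaptor that couples receptors to RAS, fell to -1.01 at 72 h (0.0104). The cascade genes below DMSO numbered 20, 19, 14 and 19 of 25 at 2, 6, 24 and 72 h, with medians of -0.19, -0.15, -0.04 and -0.22. Over all 12330 genes above the count minimum, 6272, 5893, 5893 and 6253 were below DMSO at those times. Of 14 tested relatives of the 10, ELK3, an ETS factor, fell (-1.73 at 72 h, 0.0497).

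Of receptors and their ligands, 7 of 24 tested were called, 3 rising and 4 falling (2.41% and 2.13% of all genes). ERBB3, the neuregulin receptor, rose to 1.44 at 72 h (adjusted p = 0.00341) and IGF2 rose to 0.88 (0.0131). FGFR2 fell to -1.68 (0.0152) and PDGFRA fell to -1.93 (0.0107), and KITLG, FGF8 and PDGFRB were the other 3, the last of them rising. FGFR4, a known target of the fusion, was at -0.61, -0.58, -0.72 and -0.89 (slope 0.0565), IGF1R at -0.48 at 72 h (0.492) and MET at -0.64 (0.431).

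The genes most like DUSP6 were sought by Pearson correlation of log2 change over the 8 dTAG columns of both lines, among 762 genes with a change of at least 2-fold. The columns of a line share 1 DMSO column, so r is a description. DTX4, a Deltex family ubiquitin ligase (r = 0.994), ST3GAL5, the GM3 ganglioside synthase (0.992), RASL10A, a RAS-like GTPase (0.991), OLIG2, a basic helix-loop-helix factor (0.988), and FGF8, a secreted FGF (0.987), came out on top. FGF8 was at 4013 normalised counts in DMSO and at 2587, 1181, 1018 and 1108 with dTAG where PAX3-FOXO1 carries the tag. It fell over time in that line (adjusted p = 0.0211), and in the FOXO1-FKBP line its log2 changes were -0.17, 0.00, -0.23 and 0.24. Of the other members, ETV5 (0.947) and SPRY4 (0.935) were nearest to DUSP6, and DUSP4 was opposite (-0.914).

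Without dTAG, several of the 10 genes also differed between parental Rh30 and the tagged clones, as did a large share of all genes. With edgeR over all 10 libraries, 2, 5, 3 and 7 members were called in clones 4, 10, 11 and 12, where 47.4%, 52%, 51.6% and 52.6% of 14175 genes were called. Higher than parental were 1, 3, 0 and 2 members (25.1%, 27.8%, 26.5% and 27.8% of genes), and lower were 1, 2, 3 and 5 (22.3%, 24.2%, 25.1% and 24.7%). Each clone is a single clonal line with 2 libraries, so a clone's own state and the tag cannot be told apart.

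DUSP4 had the widest spread. Its normalised counts were 311.2 and 277.2 in the parental libraries. Clone 4 had 60.7 and 69.5, clone 10 had 736.3 and 854.2, clone 11 had 375.6 and 371.1, and clone 12 had 496.7 and 870.9. Clone 4 was thus below both parental libraries (log2 -2.18, SE 0.26, adjusted p = 0.000157), and clones 10 (1.43, SE 0.23, 0.000565) and 12 (1.22, SE 0.23, 0.00136) were above them. DUSP5 was at 163.8 and 166.6 in parental cells, and clone 4 (331.6 and 465.4), clone 10 (269.4 and 459.8) and clone 12 (303.2 and 279.5) were higher by 1.27, 1.14 and 0.82 (adjusted p = 0.0022, 0.00352 and 0.0188), while clone 11 (161.3 and 188.2) overlapped parental.

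DUSP6 was called in clone 12 alone, where its libraries held 431.3 and 940.0 against 1688 and 1737 in parental cells (-1.32, SE 0.30, 0.00422). Clones 4 (2245 and 1812), 10 (1801 and 2801) and 11 (1380 and 1444) did not pass. SPRY1 was lower in clone 11 (284.1 and 205.6) and clone 12 (202.1 and 191.6) than in parental cells (498.0 and 473.6), by -0.98 and -1.30 (0.00167 and 0.000384). SPRY2, at 3315 and 3381 in parental cells, was lower in clones 10, 11 and 12, at 2091 to 2523, by -0.61, -0.49 and -0.52 (0.00251, 0.00851 and 0.00611). SPRED1, at 790.3 and 879.5 in parental cells, was lower in the same 3 clones, at 320.4 to 652.5, by -0.85, -0.74 and -1.10 (0.0237, 0.0435 and 0.00699). SPRY4 did not pass in any clone with all libraries and the filter on low counts, and its nearest was clone 12 (521.3 and 1104 against 1368 and 1259, -0.69, adjusted p = 0.0739). It passed there with DESeq2 (0.0306), library totals (0.0256) or no filter (0.00158), and in clone 11 with no filter (0.0159) or with only the 2 groups compared (0.0268).

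Each ETV factor had its own pattern of calls over the clones. ETV1 was lower in clone 12, at 388.2 and 485.7 against 844.4 and 891.9 (-0.99, SE 0.22, 0.00353). ETV5 was higher in clone 10, at 2208 and 2094 against 1541 and 1489 (0.51, SE 0.19, 0.0391). ETV4 did not pass in any clone in the same fit. Its libraries ran from 1522 to 3359 in the clones against 1849 and 1793 in parental cells, with clones 10 and 11 higher by 0.62 and 0.63 at adjusted p = 0.0788 and 0.0741. Both passed with no filter (0.015 and 0.0121) and with only the 2 groups compared (0.0317 and 0.0243).

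The calls of DUSP4 in clones 4, 10 and 12, DUSP5 in clone 4, SPRY2 in clone 10, SPRY1 in clones 11 and 12, and DUSP6 and ETV1 in clone 12 held with each library left out in turn. SPRED1 in clones 10, 11 and 12, ETV5 in clone 10, SPRY2 in clones 11 and 12 and DUSP5 in clones 10 and 12 did not. SPRED1 lost its call in clone 10 without either parental library (0.0568 and 0.103) or either clone 10 library (0.0787 and 0.0906), in clone 11 without either parental library (0.0884 and 0.16), the first clone 10 library (0.057) or the second clone 11 library (0.221), and in clone 12 without the first clone 12 library (0.0559). ETV5 lost its call in clone 10 without either parental (0.127 and 0.165), clone 10 (0.14 and 0.115) or clone 11 library (0.0835 and 0.0842). SPRY2 lost its call in clone 11 without either parental library (0.055 and 0.0671) and in clone 12 without the second parental library (0.0537). DUSP5 lost its call in clone 10 without the second clone 10 library (0.0516), and in clone 12 without either parental (0.0862 and 0.0801) or either clone 12 library (0.107 and 0.067). Calls were gained as well. SPRY4 passed in clone 12 without the second clone 12 library (-1.39, 0.00465) or either clone 4 library (0.0475 and 0.0441), and in clone 11 without either clone 12 library (0.047 and 0.0469). ETV5 passed in clone 12 without the second clone 12 library (-0.77 in place of -0.44, 0.0173) or either clone 4 library (0.0201 and 0.0173). ETV1 passed in clone 11 without the first clone 11 library (-0.74 in place of -0.48, 0.0469) or either clone 4 library (0.0287 and 0.0212), and ETV4 passed in clone 10 without the first clone 10 library (0.88, 0.0447). Markers of other cell types differed too. Summed fibroblast markers were at 22070 and 22940 normalised counts in clone 10 against 572.5 to 1996 in the other groups. In clone 10, 3 of 5 were at 10 or more counts. In the PAX3-FOXO1-FKBP time-course line, scaled apart, that sum was 19370 to 27540. Summed epithelial markers were at 2602 and 3300 in clone 4 and 1112 and 1125 in clone 10, against 76.9 to 131.1 elsewhere. The part of these markers in the clone results was not tested.

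**Figure D3:**
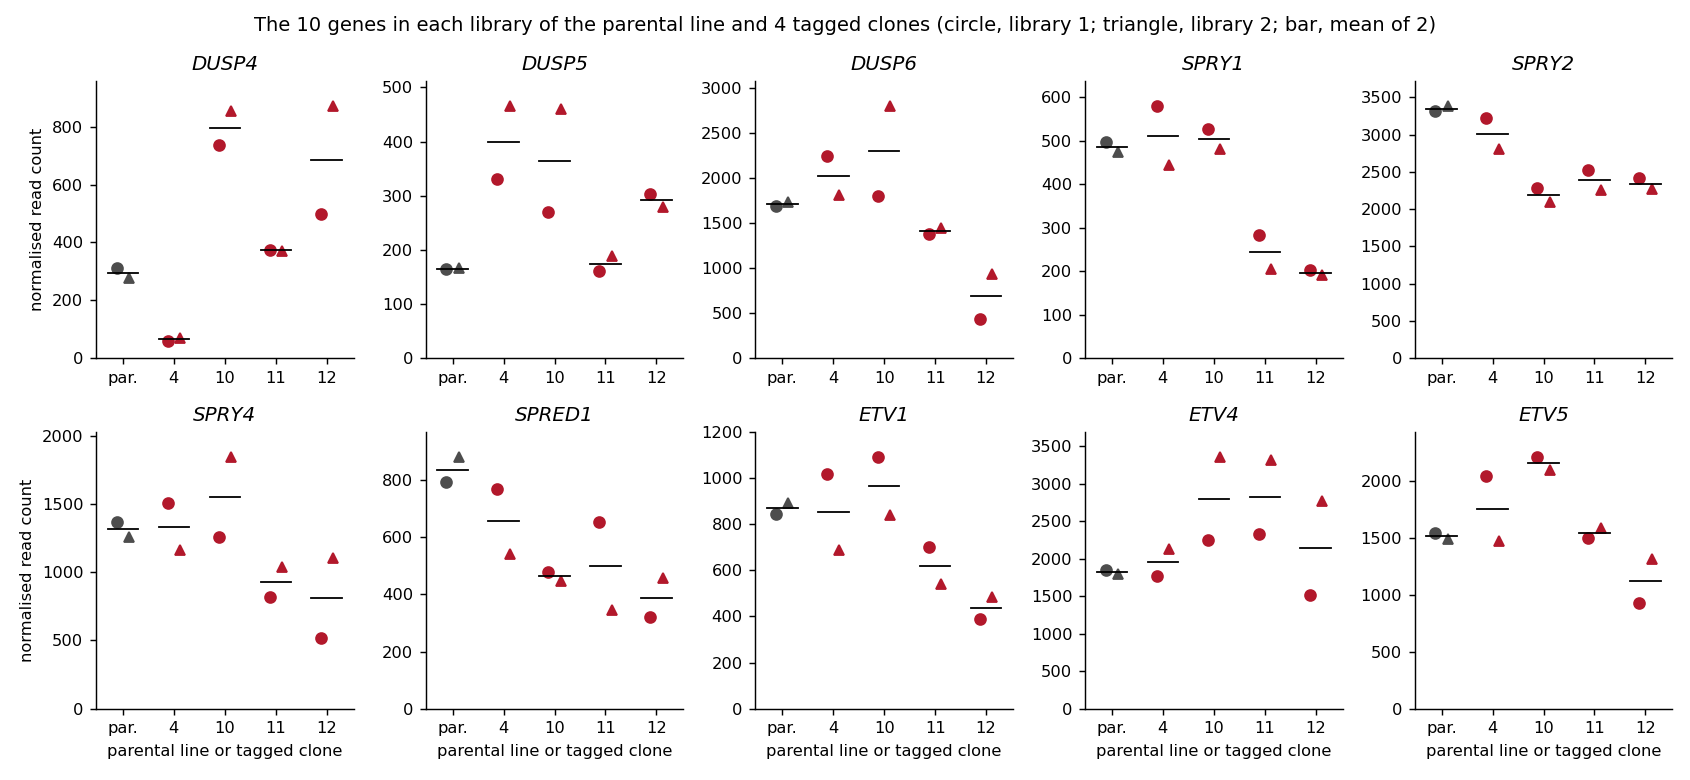
Normalised read count (y axis, from 0) of each of the 10 genes in the parental line (grey) and PAX3-FOXO1-FKBP clones 4, 10, 11 and 12 (red), with 1 point per library and a bar at the mean of 2. DUSP4 is lowest in clone 4 at 60.7 and 69.5, and DUSP6 and SPRY1 are lowest in clone 12.

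The libraries of a clone lay further apart than those of the parental line, and for several of the 10 genes further apart than for most genes. The pooled SD within groups was 0.42 (log2) for DUSP6 and for SPRY4, 0.38 for ETV4 and 0.37 for SPRED1, where the 90th percentile of 11695 genes was 0.338 and the median 0.182. SPRY2 was the tightest at 0.0945. In clone 12 the second library exceeded the first by 1.12 for DUSP6, 1.08 for SPRY4, 0.87 for ETV4 and 0.81 for DUSP4, and 6 of the 10 genes were at least 0.5 higher, where 3.91% of genes were. In clone 10 the same held for DUSP5 (0.77), DUSP6 (0.64), ETV4 (0.58) and SPRY4 (0.55), where 3.69% of genes did so. Between the parental libraries no member was 0.5 higher (0.41% of genes) or lower. In clone 4, SPRED1 (-0.51) and ETV1 (-0.56) were lower in the second library by that much, as were 13% of genes. In clone 11, ETV4 was higher (0.51; 7.07% of genes) and SPRED1 lower (-0.92; 9.87%). These pairs were singled out after their values were seen. The order of the libraries follows the replicate labels, except in clone 12, whose columns could not be matched to its labels. Deviations of same-numbered libraries correlated by 0.173 to 0.568 between clones 4, 10 and 11. Between parental cells and these clones the range was -0.0361 to 0.0845. What the order stands for was not tested.

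**Figure D4:**
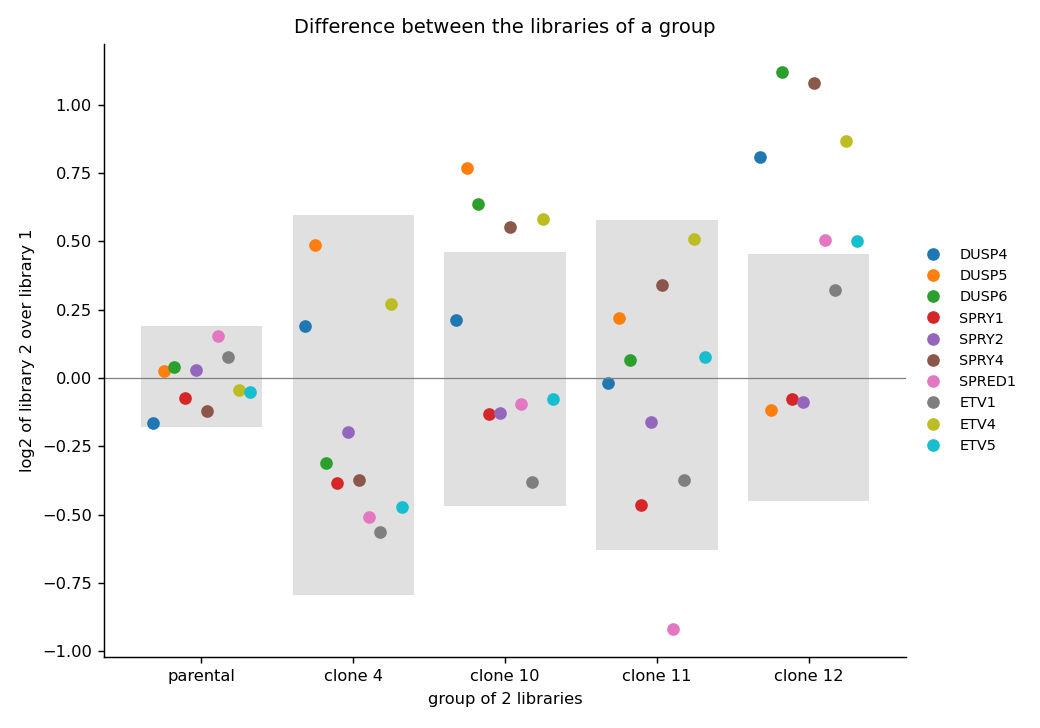
Log2 of library 2 over library 1 (y axis) in each group of 2 libraries (x axis) for the 10 genes (coloured points). Grey boxes span the 5th to 95th percentile of 11695 genes, and the points for DUSP6, SPRY4, ETV4 and DUSP4 in clone 12 lie above the box.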

How the data were processed

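RNA sequencing of Rh30 cells gave 3 tables. Trimmomatic 0.32, Cuffdiff 2.1.1, Bowtie2 and the hg19 build appear in the submitters' processing notes without roles. Annotation and counting strand are not stated there. Both time-course tables, as deposited, give estimated counts, with 1 pooled column per condition per the file headers (73.6% of values are not whole). For the clones the authors deposited a table of whole-number read counts, 1 column per library. p-values measure the spread between samples that may be technical replicates. The clone fit used 1 spread per gene for all groups, though the groups were unlike in spread. Chi-square per degree of freedom between the 2 libraries of a group was 1.84 for parental cells and 13.99 to 51.27 for the clones.

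Normalised counts were scaled with TMM factors. Time-course log2 changes used a prior count of 2 and a mean of at least 50, 4 rows with date-like names were left out, and genes with an exact 0 beside columns of at least 10 counts (41 and 9 genes) were treated as failed estimates and left out. Tests were edgeR 4.0.16 (R 4.3.3) quasi-likelihood fits with filterByExpr (minimum count 10) and Benjamini-Hochberg adjustment over all genes, called at 0.05. They were run on rounded counts per line (3 residual degrees of freedom for the slope, 2 for the curve), over both lines (6 and 4) and on the 10 clone libraries (5). The scripts were tested on simulated data, where some tests over time called more unchanged genes than the adjusted p states. Among curve calls, 21.8% and 24.2% were false at 2-fold and 9.39% and 7.39% at 4-fold. Among slope calls, 8.7% and 8.13% were false for simulated slopes of 2-fold and 4-fold. The slope difference recovered 17.6% of 2-fold and 91.9% of 4-fold slopes. DESeq2 1.42.0, other scalings, filters, thresholds and left-out columns or libraries were tried. Transcript length and GC came from GENCODE 29, matched by symbol. Named genes outside the 10 are up to 4 per list with the lowest p among those passing the slope or curve test, a few preset genes, and the 5 most like DUSP6. ERK-responsive genes below the count minimum that reached 2-fold in the PAX3-FOXO1-FKBP line are named as well. The 10 genes and the lists were chosen with earlier results of these data known.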

Additional observations from a re-analysis of the deposited data

Results flagged for a closer look

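ETV5 is flagged because its change over time differed between the lines: the slope was lower in the PAX3-FOXO1-FKBP line than in the FOXO1-FKBP line by -0.20 on the log2 scale (edgeR adjusted p = 0.00921), and it was below DMSO in 4 of 4 dTAG columns of the former. A further 7 results are flagged because a gene differed among the 4 tagged clones in an edgeR test added after the data were seen, in which 63.5% of 14175 genes were called. These were DUSP4 (adjusted p = 1.45e-05), SPRY1 (0.000275), DUSP6 (0.0031), ETV1 (0.00483), ETV5 (0.00785), DUSP5 (0.00935) and SPRY2 (0.0319). SPRY4 missed the threshold at 0.0502, and SPRED1 (0.139) and ETV4 (0.221) did not pass. Groups of 2 allow no check for outlying samples.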

How the results depend on the processing

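Under a 1.5-fold threshold 1, 8, 6 and 7 members were past it at 2, 6, 24 and 72 h in the PAX3-FOXO1-FKBP line. Over all genes of that line, 2.03%, 4.01%, 4.05% and 8.78% were at least 1.5-fold lower at those times, and 2.05%, 2.91%, 3.82% and 9.42% higher. By class, 3 members were transient (3.47% of all genes), 5 lasting (8.37%) and 2 late (9.72%). In the FOXO1-FKBP line 1 member was past 1.5-fold, at 2 h, where 0.309% of genes were higher and 0.376% lower by that much. Another prior count, minimum or scaling, GC and length correction, or keeping failed estimates left the counts of members past 2-fold within 1.5 times. Counts over all genes moved more. With a mean of at least 10, genes higher and lower were 160 and 95, 142 and 260, 269 and 332, and 651 and 520 at 2, 6, 24 and 72 h in the PAX3-FOXO1-FKBP line, and 33 and 28, 33 and 25, 56 and 43, and 46 and 94 in the FOXO1-FKBP line. In the latter, library totals changed the 6 h counts from 4 and 3 to 4 and 5, those of 24 h from 13 and 12 to 22 and 9, and a prior count of 0.5 gave 5 lower at 6 h. GC and length correction there left 4 higher and 2 lower (2 h), 10 and 4 (24 h), and 3 and 27 (72 h). DESeq2 called 5 members for the curve (4.93% of all genes) and 1 for the squared term (0.175%). It called 2 for the slope difference (3.81%) and 3 for the curve difference (2.31%). ETV1 was added to the slope calls (0.0221), where DESeq2 called 7.34% of genes. With time in hours, members called were 0 for the slope, 1 for the curve, 0 for the slope difference and 1 for the curve difference. Genes called were then 216 and 333 of 14251, and 154 and 161 of 14502, in the same order. A mean of at least 50 took ETV4 out of the slope calls (0.0539). With each column left out in turn, members called ran from 0 to 3 (slope), 3 to 8 (curve), 0 to 4 (squared term), 0 to 2 (slope difference) and 0 to 3 (curve difference). The squared term of ETV4 turned to -0.078 (adjusted p = 0.0313) without the 72 h column and was 0.12 at most, without the DMSO column. Over all settings, genes called in the PAX3-FOXO1-FKBP line ran from 120 to 1401 (slope), 213 to 1659 (curve) and 0 to 796 (squared term), in the FOXO1-FKBP line from 0 to 1181, 0 to 176 and 0 to 39, and for the differences from 18 to 683 and 0 to 479. Scaling by library totals moved the median of all genes at 72 h to -0.11 and turned 46 higher and 34 lower genes at 2 h into 40 and 45.

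With each clone library left out, members called ran from 2 to 5 in clone 10, 1 to 4 in clone 11, 5 to 9 in clone 12 and 6 to 8 among clones. Library totals took out ETV5 in clone 10 (0.116) and DUSP5 in clone 12 (0.0576), and a fit of only the 2 groups took out SPRED1 in clone 11 (0.0704) and added DUSP6 there (-0.28, 0.0492). ETV1 in clone 11 was added by DESeq2 (0.0499), library totals (0.0321), no filter (0.0139) and the fit of 2 groups (0.0377), and ETV5 in clone 12 by the same 4 (0.0387, 0.0167, 0.0155 and 0.0278). Clone 11 had 6 with no filter and 6 with only the 2 groups. Replicate numbers were shared by parental cells and clones 4, 10 and 11 only, and deviations of same-numbered libraries correlated by 0.173 to 0.568 between clones and by -0.0361 to 0.0845 between parental cells and a clone, so the numbers were not taken to pair the libraries compared. A replicate block gave 2, 6 and 6 members in clones 4, 10 and 11, adding ETV4 in clones 10 (0.0159) and 11 (0.0128), SPRY4 in clone 11 (0.0252) and ETV1 in clone 11 (0.0124). The cause of these shifts was not tested. Depth limits DUSP5 most, at 98.6 to 151.4 counts in the FOXO1-FKBP line.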

Other observations

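Outside the naming rule, and chosen after its values were seen, ETS1, an ETS factor of the same wider family as the ETV genes, was low at 6 and 24 h in the PAX3-FOXO1-FKBP line. Its normalised count was 3510 in DMSO and 3505, 1594, 1473 and 2365 at 2, 6, 24 and 72 h, at least 2-fold lower at 6 and 24 h and -0.57 at 72 h, and its slope did not pass (edgeR adjusted p = 0.349). DUSP1, a nuclear phosphatase of stress-activated and ERK kinases, was above DMSO at every time: 504.6 in DMSO, then 733.3, 596.8, 660.4 and 1157 (slope adjusted p = 0.105).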
